A study of Mus musculus with 6 samples.

Results

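The constitutive proteasome is described here through 41 genes of 22180 measured, each read by 1 probe set on Affymetrix arrays. They are all genes whose only symbol in the array annotation starts with Psma, Psmb, Psmc, Psmd or Psme and a number, without the inducible subunits Psmb8, Psmb9 and Psmb10. A total of 43 probe sets met that rule, and a gene with several was represented by the one of highest mean over the 6 arrays. The genes fall into a core particle of 15 (7 of the alpha ring, Psma, and 8 of the beta ring, Psmb), a regulatory particle of 21 (7 with Psmc and 14 with Psmd symbols) and an activator class of 5 (Psme). The letters of the rule also took in Psmc3ip, which encodes a partner of meiotic recombinases, and Psme3ip1, which encodes a protein that binds an activator; neither is a subunit. Psma4 was not a member, because both of its probe sets carry a second gene symbol.

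RNA came from megakaryoerythroid progenitors (MEP), bone marrow cells from which megakaryocytes and red cells arise. Per the labels, 3 arrays held T-bet knockout animals and 3 held wild-type animals, all C57BL/6, with 1 array per animal. Cells of both genotypes were stained with antibodies and taken from fresh marrow with a flow sorter, and the labels record no treatment. Neither the knockout allele nor the age of the animals is given in the sources used here. The question is what the loss of T-bet, a transcription factor known from T helper and natural killer cells, does to progenitor RNA. Values are log2 signals as deposited, and 3 values of a genotype are always given in the order of replicates 1, 2 and 3.

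The proteasome degrades proteins tagged with ubiquitin. Its core is a barrel of stacked alpha and beta rings, in which 3 beta subunits (Psmb5, Psmb6 and Psmb7) cut peptide bonds. The regulatory particle caps the barrel, binds and removes ubiquitin, and unfolds the substrate with a ring of ATPases, while the activators open the core without ATP. Red cell precursors depend on the ubiquitin system when they remodel their protein content during maturation.

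Array medians lay between 6.44 and 6.53. The fixed erythroid progenitor markers Gata1, Klf1, Epor, Tfrc and Kit all lay between the 91.7th and the 99.0th percentile of probe set signal. The measured megakaryocyte markers Itga2b, Gp9, Pf4 and Vwf lay lower, at percentiles 67.6, 84.2, 60.2 and 64.8. Tbx21, the gene of T-bet, read 6.41, 6.60 and 6.46 in knockout arrays, against 6.54, 6.62 and 6.60 in wild-type arrays. Those groups overlapped, and whether the probe set lies in the deleted part is unknown here, so the genotype labels were not checked by it. Knockout replicates 1 and 2 and wild-type replicate 1 carried signal of both Xist and the Y-linked gene Eif2s3y, which goes against a label of 1 animal each. Replicate 3 of either genotype carried Eif2s3y without Xist, and wild-type replicate 2 carried Xist without Eif2s3y. Results are therefore also given with the kind of sex-linked signal as a block and on the 3 arrays that carry 1 kind of signal. The p-values measure the spread between these 6 arrays, which the program limma moderates toward the spread of all probe sets. A member of small spread therefore gets a larger SE than its own values would give.

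No proteasome member passed limma's test of knockout against wild type. At an adjusted p of 0.05, 0 of 41 members were called, against 0 of 41345 probe sets (0.00%). At an unadjusted p under 0.05 there were again 0 of 41 members, against 4.92% of all probe sets and 3.13% of genes with 1 probe set each. The unadjusted p of the members ran from 0.254 for Psmb1 to 0.993 for Psmd12, and every limma adjusted p was 1. Differences, knockout minus wild type, lay between -0.11 and 0.13 on the log2 scale, and 38 of 41 were smaller than 0.1 in size.

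The arrays did bound these differences. The 95% interval lay within 1.5-fold in both directions for 39 of 41 members, against 85.9% of all genes. It lay within 1.3-fold for 37 of 41, a bound picked after the values were seen, against 52.6% of all genes. Probe sets of high signal have narrow intervals, and 26 members lay in the top 10% of signal. Of those 26, all 26 were bounded within 1.3-fold, against 91.1% of all genes in the top 10% of signal. Psma5 and Psme2 were the exceptions to the 1.5-fold bound, with intervals that reached 1.60-fold and 1.57-fold. These are bounds on array signal in bulk RNA, in which fewer cells and less RNA per cell cannot be told apart. No detection calls were used, so whether dim probe sets read above background is unknown here. Psmb11, Psma5 and Psmb3 had mean signals of 5.95, 6.41 and 6.71, beside array medians of 6.44 to 6.53, and Psma8 had 7.33. The counts include these genes, whose bounds need not hold for their RNA.

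**Figure D1:**
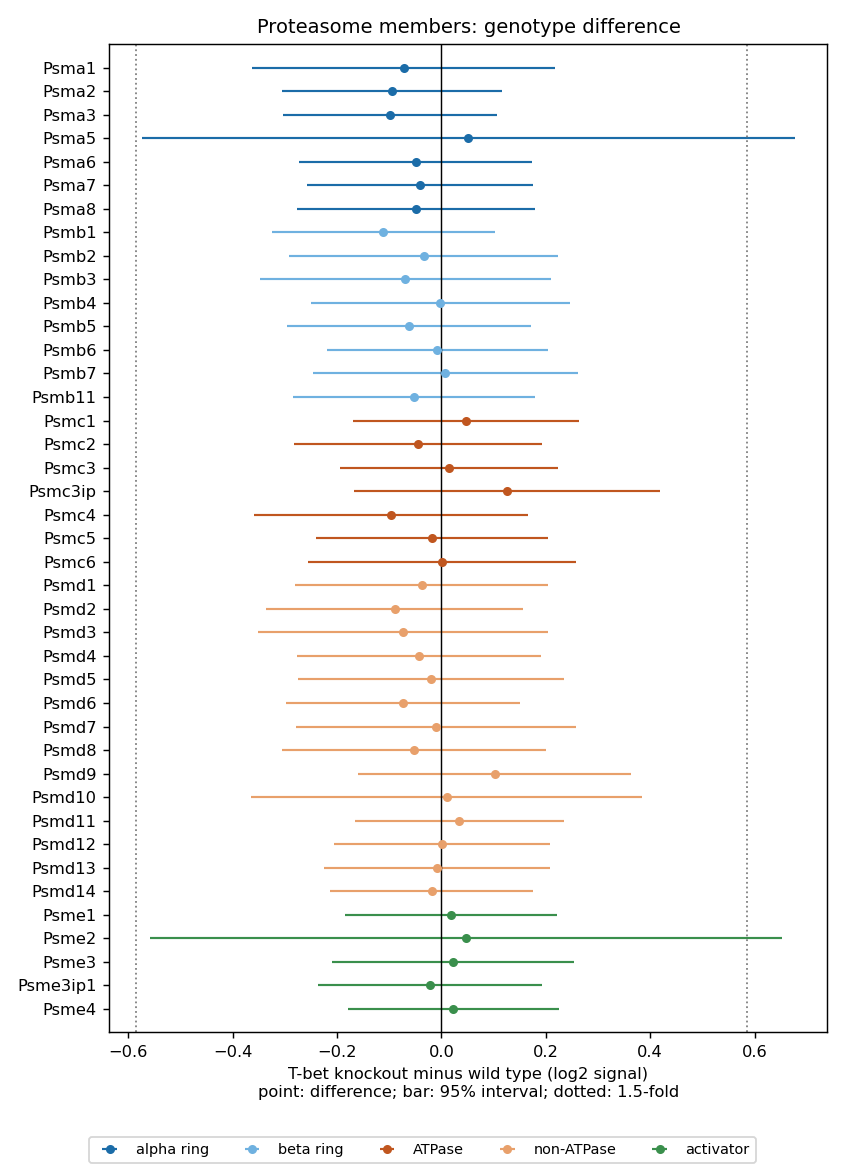
Difference of each of the 41 members, T-bet knockout minus wild type, on the log2 scale (horizontal axis), with limma's 95% interval as a bar and colour by subunit class. Every interval spans 0, and those of Psma5 and Psme2 alone cross a dotted line at 1.5-fold.

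The alpha ring forms the gate through which substrates enter the core. Psma3, one of its structural subunits, read 11.34, 11.35 and 11.34 in knockout arrays, against 11.38, 11.52 and 11.43 in wild-type arrays. All its knockout values lay below all its wild-type values, with a difference of -0.10 (SE 0.09, unadjusted p = 0.291, limma adjusted p = 1). It was the only member of 41 whose groups did not overlap, where 8.70% of all genes and 5.15% of those in the top 10% of signal showed no overlap.

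Psma2, another structural subunit of the ring, read 10.45, 10.55 and 10.53 in knockout arrays, against 10.55, 10.67 and 10.59 in wild-type arrays, so that the difference was -0.09 (SE 0.09). The groups overlapped through knockout replicate 2 and wild-type replicate 1. Psma1, a further alpha subunit, read 10.13, 10.34 and 10.33 in knockout arrays, against 10.15, 10.45 and 10.43 in wild-type arrays, so that the difference was -0.07 (SE 0.12). Its lowest value in each group was that of replicate 1. Psma6, Psma7 and Psma8, the last known as a testis form, differed by -0.05 to -0.04, with SE between 0.09 and 0.10.

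Psma5, also an alpha subunit, had the largest SD pooled over both groups among the 41. It read 6.05, 6.79 and 6.49 in knockout arrays, against 5.99, 6.82 and 6.35 in wild-type arrays. The order of the replicate numbers was the same in both genotypes, and the group difference was 0.05 (SE 0.26). A second probe set for Psma5 read 5.27, 5.34 and 5.43 in knockout arrays, against 5.38, 5.42 and 5.65 in wild-type arrays. It did not show the low replicate 1 and high replicate 2 to the same extent, and its difference was -0.13 (SE 0.11). Whether either probe set reads Psma5 RNA above background is unknown here.

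Among the catalytic beta subunits, Psmb5 (chymotrypsin-like) read 8.91, 8.86 and 8.91 in knockout arrays, against 8.99, 9.06 and 8.83 in wild-type arrays. The difference was -0.06 (SE 0.10, 95% interval -0.30 to 0.17). Both the highest and the lowest of the 6 values were wild type.

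Psmb6 (caspase-like) read 9.55, 9.62 and 9.71 in knockout arrays, against 9.65, 9.60 and 9.65 in wild-type arrays, so that the difference was -0.01 (SE 0.09, interval -0.22 to 0.20). Its wild-type values lay inside the knockout range. Psmb7 (trypsin-like) read 10.75, 10.89 and 10.95 in knockout arrays, against 10.74, 10.96 and 10.87 in wild-type arrays, so that the difference was 0.01 (SE 0.11, interval -0.25 to 0.26). For all 3 active sites the interval thus stayed within 1.3-fold.

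Psmb1, a noncatalytic beta subunit, had the smallest unadjusted p of all members, 0.254. It read 10.74, 10.77 and 10.76 in knockout arrays, against 10.91, 10.93 and 10.77 in wild-type arrays, so that the difference was -0.11 (SE 0.09). Wild-type replicates 1 and 2 were the high arrays, and wild-type replicate 3 read the same as knockout replicate 2 to 2 decimals.

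Psmb3, another structural beta subunit, read 6.73, 6.53 and 6.76 in knockout arrays, against 6.76, 6.88 and 6.59 in wild-type arrays, so that the difference was -0.07 (SE 0.12). Psmb2, Psmb4 and Psmb11 differed by -0.05 to -0.002, with SE between 0.10 and 0.11. Psmb11 is the subunit of the thymic cortex, and its probe set read 5.96, 5.95 and 5.86 in knockout arrays, against 6.03, 6.05 and 5.85 in wild-type arrays. Whether that signal is above background is unknown here, since no detection calls were used.

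The regulatory particle sits on the alpha ring, and its base is a ring of ATPases encoded by Psmc genes. Psmc4 read 10.38, 10.51 and 10.51 in knockout arrays, against 10.40, 10.61 and 10.68 in wild-type arrays, so that the difference was -0.10 (SE 0.11). Psmc1 read 10.02, 10.16 and 10.17 in knockout arrays, against 10.04, 10.11 and 10.06 in wild-type arrays, so that the difference was 0.05 (SE 0.09). In both ATPase genes replicate 1 was the lowest array of its group.

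Psmc3ip, not a subunit, had the largest positive difference of the 41, 0.13 (SE 0.12). It read 7.99, 8.06 and 8.18 in knockout arrays, against 7.84, 8.17 and 7.85 in wild-type arrays, and wild-type replicate 2 alone overlapped the knockout range. The other ATPases, Psmc2, Psmc3, Psmc5 and Psmc6, differed by -0.04 to 0.01.

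The lid, the scaffold and some assembly chaperones of the regulatory particle carry the Psmd symbols. Psmd2, a large scaffold subunit, read 10.52, 10.74 and 10.69 in knockout arrays, against 10.65, 10.82 and 10.75 in wild-type arrays, so that the difference was -0.09 (SE 0.10). Psmd6, a lid subunit, read 9.71, 9.89 and 9.84 in knockout arrays, against 9.84, 9.95 and 9.87 in wild-type arrays, so that the difference was -0.07 (SE 0.09). In both, knockout replicate 1 was the lowest of the 6 arrays and wild-type replicate 2 the highest.

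Psmd9, an assembly chaperone of the ATPase ring, read 8.26, 8.34 and 8.55 in knockout arrays, against 8.21, 8.35 and 8.28 in wild-type arrays, so that the difference was 0.10 (SE 0.11). Knockout replicate 3 alone lay above the wild-type range. Psmd10 (gankyrin), a second such chaperone, read 8.68, 9.04 and 9.16 in knockout arrays, against 8.75, 9.08 and 9.02 in wild-type arrays, so that the difference was 0.01 (SE 0.16).

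Psmd10 lies on the X chromosome. Replicates 1 and 2 of each genotype carried Xist, and of these Psmd10 read low in replicate 1 and high in replicate 2. The part of sex-linked signal in the spread of Psmd10 was not tested. The remaining 10 Psmd genes differed by -0.07 to 0.03. They include Psmd4, a ubiquitin receptor, at -0.04 (SE 0.10). Psmd14, the deubiquitinase of the lid, had the smallest spread of all 41, with values from 9.56 to 9.62 in knockout arrays, against from 9.60 to 9.62 in wild-type arrays.

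Activators bind the core in place of the regulatory particle. Psme1 and Psme2 encode the chains of an interferon-inducible activator, Psme3 a nuclear one and Psme4 a large single-chain one. Psme1 read 11.29, 11.23 and 11.26 in knockout arrays, against 11.30, 11.21 and 11.22 in wild-type arrays, so that the difference was 0.02 (SE 0.08). Psme3 read 10.822, 10.964 and 11.004 in knockout arrays, against 10.867, 10.994 and 10.863 in wild-type arrays, so that the difference was 0.02 (SE 0.10). The knockout values of Psme1 lay inside its wild-type range, and those of Psme3 spanned its wild-type values.

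Psme4 read 9.958, 9.998 and 10.076 in knockout arrays, against 9.987, 9.978 and 9.997 in wild-type arrays, so that the difference was 0.02 (SE 0.08). Psme3ip1 read 10.76, 10.92 and 10.88 in knockout arrays, against 10.83, 10.91 and 10.89 in wild-type arrays, so that the difference was -0.02 (SE 0.09). In both genes knockout replicate 1 was the lowest array.

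Psme2 read 7.52, 8.58 and 8.07 in knockout arrays, against 7.93, 7.96 and 8.14 in wild-type arrays. The knockout arrays thus held both the lowest and the highest value, and the difference was 0.05 (SE 0.25). Its partner Psme1 did not share that spread, with an SD of 0.03 over the knockout arrays against 0.53 for Psme2. A second probe set annotated to Psme2 and to 2 further genes read 8.03, 8.06 and 7.81 in knockout arrays, against 8.21, 7.99 and 7.87 in wild-type arrays, without a low knockout replicate 1. RefSeq also lists Psme2b, a gene copy on chromosome 11, and whether the Psme2 probe set reads it too is unknown here, so its values are uncertain.

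**Figure D2:**
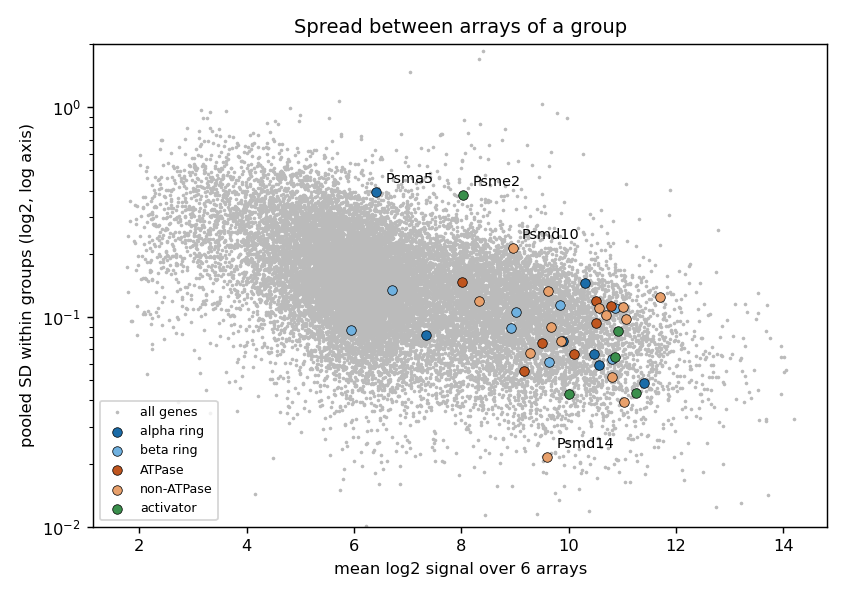
Pooled SD within groups (vertical, log axis) against mean log2 signal over 6 arrays (horizontal) for all genes in grey and for the 41 members in colour by class. Psma5, Psme2 and Psmd10 stand above the band of members, and Psmd14 lies lowest.

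Spread was set against the 500 genes nearest in mean signal. The SD of Psma5 exceeded that of 99.2% of such genes, that of Psme2 98.0% and that of Psmd10 96.8%, while that of Psmd14 exceeded 0.8%. Of the 41 members, 18 lay above the middle of their neighbours and these 3 in the top 5%. Values over the 6 arrays spanned less than 0.3 log2 units in 30 members and less than 0.5 in 39.

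By class, the core particle had a median difference of -0.05, with 13 of 15 members below 0. The regulatory particle had a median of -0.02, with 13 of 21 below 0, and the activator class a median of 0.02, with 1 of 5 below 0. Over all genes the median difference was -0.004 and 51.8% lay below 0, and over genes in the top 10% of signal the median was 0.003 and 47.5% lay below 0. The alpha ring had 6 of 7 members below 0 and a median of -0.05, and the beta ring 7 of 8 and a median of -0.04. Without Psmc3ip the regulatory median stayed at -0.02, and without Psme3ip1 the activator median stayed at 0.02. Without Psma8 and Psmb11, whose usual sites are testis and thymus, the core median stayed at -0.05 with 11 of 13 below 0. The class medians were not tested against each other. The means of the core, regulatory and activator classes had an SD of 0.07 to 0.10 between arrays of a group, without regard to the replicate numbers. That SD was 0.11 for the alpha ring and 0.06 for the beta ring.

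Within the 3 same-numbered pairs of arrays, knockout minus wild type, the mean over the alpha ring was -0.002, -0.10 and -0.04. That over the beta ring was -0.09, -0.12 and 0.08, over the regulatory particle -0.02, -0.05 and 0.04, and over the activators -0.11, 0.13 and 0.04. For genes in the top 10% of signal the mean was -0.03, -0.005 and 0.04, and for all genes 0.007, -0.001 and -0.02. In 8 of 41 members (19.5%) the knockout array was the lower in all 3 pairs, against 14.2% of all genes and 13.4% of those in the top 10% of signal. These were Psma1, Psma2, Psma3, Psmb1, Psmc4, Psmd2, Psmd6 and Psmd14. In 0 of 41 it was the higher in all 3, against 12.4% of all genes. With the replicate number as a block, 0 of 41 members had an unadjusted p under 0.05 in limma's test, and the smallest was 0.274.

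The sign counts moved with single arrays in both directions. Without wild-type replicate 2 10 of 15 core members lay below 0 with a median of -0.01, and 7 of 21 regulatory members with a median of 0.02. With the kind of sex-linked signal as a block, in which wild-type replicate 2 is alone in its class, the core count was 8 of 15 with a median of -0.002. The regulatory count was then 7 of 21 with a median of 0.03. On the 3 arrays with 1 kind of sex-linked signal, 1 knockout against 2 wild type, 10 of 15 core members lay below 0 with a median of -0.09. Without knockout replicate 1 the counts were 10 of 15 for the core and 6 of 21 for the regulatory particle, with medians of -0.04 and 0.02. Leaving out replicate 2 or replicate 3 of the knockout gave a core count of 14 of 15 in each case, and regulatory counts of 15 and 17 of 21 with medians of -0.03 and -0.05. Leaving out replicate 1 of the wild type gave 14 of 15 and 15 of 21, with a regulatory median of -0.08. Of the activators, 3 of 5 lay below 0 without knockout replicate 3. In each of these fits 0 of 41 members had an unadjusted p under 0.05; the fit on 3 arrays rests on 1 knockout array and on 2 wild-type arrays that differ in sex-linked signal, and says nothing about stability.

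Members shifted together from array to array within both genotypes. Each member's deviation from its own mean over the 6 arrays was taken, so that probe sets are not set against each other. In knockout replicate 1 the median deviation was -0.08 over the 41 members, and 4 of them lay above their own mean. In knockout replicates 2 and 3 the median was 0.02 each, with 25 and 27 members above their mean. In wild-type replicates 1 to 3 it was -0.05, 0.09 and -0.002, with 11, 36 and 19 members above their mean. Knockout replicate 1 held the lowest of the 6 values for 23 of 41 members (56.1%), and wild-type replicate 2 the highest for 20 (48.8%).

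Part of this pattern was shared by other bright probe sets. Among the 2658 genes in the top 10% of signal, median deviations were -0.07, 0.03 and 0.05 in knockout arrays, against -0.04, 0.03 and 0.01 in wild-type arrays. Knockout replicate 1 was lowest for 45.2% of those genes and wild-type replicate 2 highest for 25.5%. Relative to the group mean, replicate 1 lay low for 36 of 41 members in the knockout and 31 in the wild type, and replicate 2 for 11 and 4. Replicate 3 did not run alike, with 9 members below the group mean in the knockout and 24 in the wild type, and with 22 of 41 on the same side in both.

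**Figure D3:**
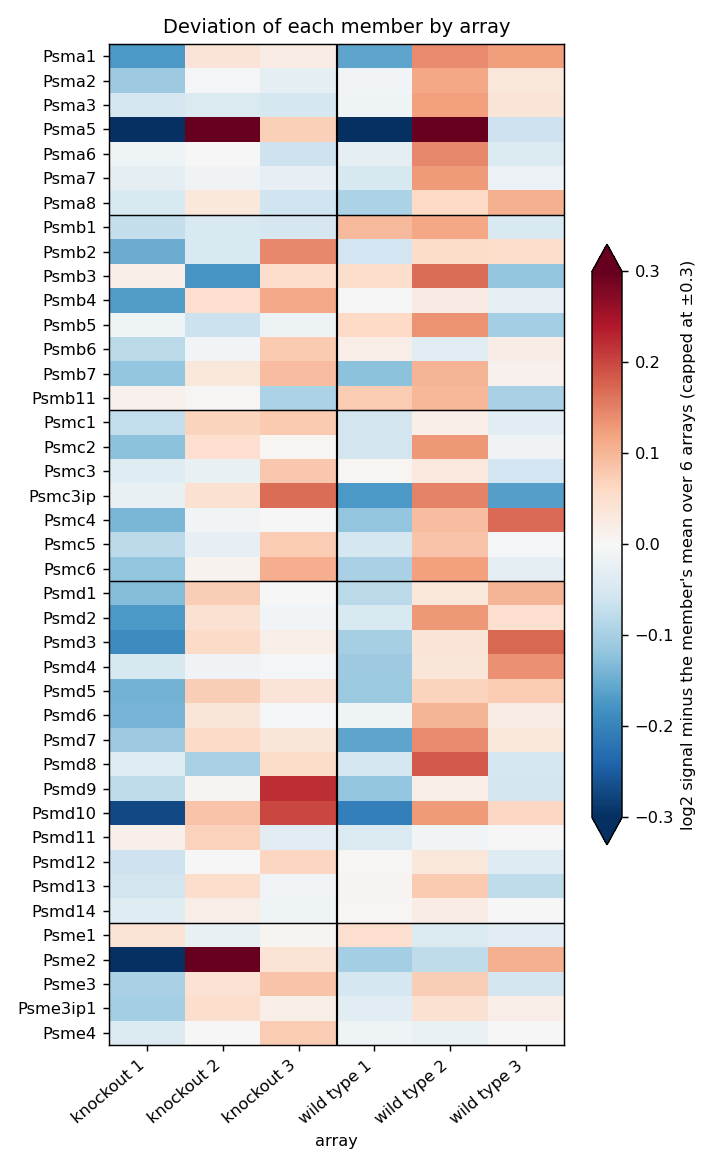
Deviation of each member (rows, ordered by class) from its own mean over the 6 arrays (columns), in log2 units with the colour capped at 0.3. Knockout replicate 1 and wild-type replicate 1 are mostly blue (low), and wild-type replicate 2 is mostly red (high).

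Wild-type replicate 2 was also read class by class, with no test of the difference between classes. For the core particle that array was the highest of 6 in 11 of 15 members (73.3%), with a median deviation of 0.12, and 14 of 15 lay above their own mean. In the alpha ring all 7 members lay above their mean there, and 6 of 7 had their highest value. The regulatory particle had its highest value there in 9 of 21 members (42.9%), with a median deviation of 0.08, and 20 of 21 lay above their own mean. None of the 5 activator members was highest there (0 of 5), and their median deviation was -0.02. The rise was not particular to the core. In that array the mean deviation was 0.14 over the immunoproteasome subunits and 0.08 over interferon-inducible presentation genes, the highest array of each list. Assembly and binding factors (0.05), transcription control genes (0.01) and ubiquitin genes and shuttles (0.03) were highest in knockout replicate 3 instead. In knockout replicate 1 the median deviations of the core, regulatory and activator classes were -0.07, -0.08 and -0.10.

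**Figure D4:**
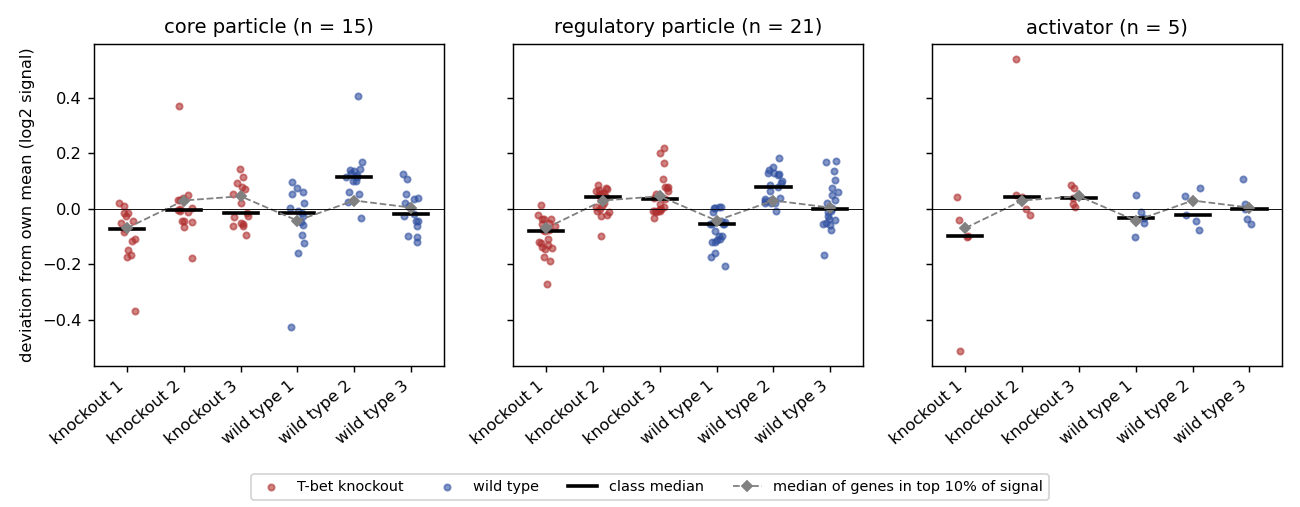
Deviation of each member from its own mean (vertical, log2 units) in each array (horizontal), by class; red points are knockout, blue points wild type, black bars class medians, and grey diamonds the median of genes in the top 10% of signal. The core median of 0.12 in wild-type replicate 2 lies above the grey diamond at 0.03, and the activator median there is -0.02.

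Markers of other cells and of handling were also read array by array. The mean deviation of 4 measured B cell markers was 0.25, -0.24 and 0.64 in knockout arrays, against 0.01, -0.69 and 0.04 in wild-type arrays. That of 5 handling stress genes was -0.11, -0.13 and 1.28 in knockout arrays and 0.32, -0.97 and -0.38 in wild-type arrays. Wild-type replicate 2 was the lowest array for both list means, and knockout replicate 3 the highest. The B cell marker Cd79b departed from its list, with its lowest value in knockout replicate 2 (6.88) and its highest in wild-type replicate 3 (7.22). For the lists that follow, wild-type replicate 2 lay inside the range of the other arrays. The 5 granulocyte and monocyte markers had -0.11, -0.18 and 0.40 in knockout arrays and -0.18, -0.15 and 0.22 in wild-type arrays. The 4 megakaryocyte markers measured had -0.23, -0.24 and 0.07 in knockout arrays and 0.06, 0.005 and 0.32 in wild-type arrays, and the 5 T and NK cell markers 0.09, -0.08 and 0.003 in knockout arrays and 0.03, -0.03 and -0.01 in wild-type arrays. The T and NK cell means average members that went opposite ways. Knockout minus wild type was 0.11, 0.19 and 0.27 for Cd3e, Cd3g and Cd4, and -0.28 and -0.27 for Nkg7 and Lat. The part of all these markers in the proteasome values was not tested.

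Promoters of the members were examined in RefSeq windows of the GRCm38.p6 assembly that run from 250 bases before to 50 bases after a gene's start. Windows were found for 34 of 41 members, 38 windows in all; Psma8, Psmb1, Psmb2, Psmb7, Psmc3, Psmd3 and Psmd7 had no entry. A CCAAT box (CCAAT on either strand), the core of the NF-Y site, was held by 15 of 38 member windows (39.5%), against 37.4% of 32851 windows. In the alpha ring 5 of 6 genes with a window held one, Psma5 being the exception, against 2 of 5 in the beta ring, 3 of 6 Psmc genes, 3 of 12 Psmd genes and 2 of 5 Psme genes. These counts were made after the array values were seen and were not tested. The 3 alpha windows below show it in the 150 bases before the start, written 5′ to 3′ on the gene's strand with the matches in capitals.
Psma1, chr7:114276117-114276266, minus strand: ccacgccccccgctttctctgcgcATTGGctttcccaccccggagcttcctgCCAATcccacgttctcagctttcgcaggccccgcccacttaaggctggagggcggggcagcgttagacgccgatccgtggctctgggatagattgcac
Psma2, chr13:14613092-14613241, plus strand: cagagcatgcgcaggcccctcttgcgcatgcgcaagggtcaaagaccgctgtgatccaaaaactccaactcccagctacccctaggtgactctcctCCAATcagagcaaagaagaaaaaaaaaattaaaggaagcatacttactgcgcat
Psma6, chr12:55384072-55384221, plus strand: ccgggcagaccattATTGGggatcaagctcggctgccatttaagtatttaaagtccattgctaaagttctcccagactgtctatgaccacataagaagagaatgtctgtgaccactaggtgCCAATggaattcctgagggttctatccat

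The proteasome genes are known targets of Nrf1 (Nfe2l1), which binds antioxidant response type elements. The letters TGACNNNGC, on either strand, were in 6 of 38 member windows (15.8%), against 12.4% of all windows. The 6 genes were Psmb5, Psmb6, Psmc6, Psmd9, Psmd12 and Psme4. Both catalytic genes among them are shown, with the match in capitals 47 bases before the start in Psmb5 and 9 bases before it in Psmb6.
Psmb5, chr14:54617996-54618145, minus strand: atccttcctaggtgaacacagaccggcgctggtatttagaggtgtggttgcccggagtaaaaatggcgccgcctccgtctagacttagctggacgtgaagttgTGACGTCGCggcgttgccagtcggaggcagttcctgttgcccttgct
Psmb6, chr11:70525207-70525356, plus strand: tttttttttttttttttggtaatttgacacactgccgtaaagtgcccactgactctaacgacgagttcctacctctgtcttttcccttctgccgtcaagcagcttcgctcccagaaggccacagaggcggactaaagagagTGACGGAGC

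Of these 6 genes, Psmd9, Psme4, Psmc6 and Psmd12 differed by 0.10, 0.02, 0.001 and 0.0008, and Psmb5 and Psmb6 by -0.06 and -0.01. An interferon response type element, spelled GAAA, any 2 letters and GAAA on either strand, was in 4 of 38 member windows (10.5%), against 3.44% of all windows. It was found in Psmb3, Psmd4, Psmd9 and the activator gene Psme1. A match is a run of letters and not a shown binding site, and motifs may overlap.

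Of 35 measured genes around the proteasome, 0 had an unadjusted p under 0.05, against 3.13% of all genes, so the count lies near the background share. The immunoproteasome subunits, which replace the catalytic ones under interferon, had 0 of 3 at an unadjusted p under 0.05 and a median of -0.07, with Psmb8 at -0.14, Psmb10 at -0.07 and Psmb9 at -0.04. Of the assembly and binding factors, 12 of 14 were measured and 0 had an unadjusted p under 0.05, with a median of -0.003. They include the inhibitor Psmf1 at 0.08 (SE 0.10), the core assembly chaperone Psmg2 at -0.09 (SE 0.14) and Ecpas, a proteasome adaptor, at 0.06 (SE 0.09).

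Transcription control genes had 0 of 5 measured at that threshold and a median of 0.002. Nfe2l1 read 8.78, 8.83 and 8.86 in knockout arrays, against 8.92, 8.91 and 8.93 in wild-type arrays, so that the difference was -0.10 (SE 0.08). Its groups did not overlap. Of the 35 genes, 2 had groups that did not overlap, Nfe2l1 and Psmb8, both lower in the knockout, against 8.70% of all genes. Psmb8 read 8.95, 8.87 and 8.99 in knockout arrays, against 8.99, 9.18 and 9.04 in wild-type arrays. Mafk, a small partner of Nrf factors, differed by 0.08 and Nfe2l2 by 0.03.

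Ubiquitin genes and shuttles had 0 of 8 measured at an unadjusted p under 0.05 and a median of 0.05, led by Ufd1, a cofactor of the Vcp unfoldase, at 0.15 (SE 0.10). Ubqln2 and Ubqln1, shuttles that carry tagged proteins to the proteasome, differed by 0.14 and 0.09. Interferon-inducible presentation genes had 0 of 7 measured and a median of -0.08, with the peptide transporter chain Tap1 at -0.14, Irf1 at -0.18 and Nlrc5 at -0.12. In all of these lists 0 genes passed limma's adjusted p of 0.05.

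Tbx21 lies on chromosome 11, as do 9 of the 41 members, so their values were set beside the rest. The nearest was Psmb3, with 13 protein-coding genes between it and Tbx21 in RefSeq's order, followed by Psmd3 with 45. They differed by -0.07 each (SE 0.12 each). The 9 members had a median difference of 0.0008 with 4 below 0, and the 32 members on other chromosomes a median of -0.04 with 23 below 0. None of the 9 had an unadjusted p under 0.05 in limma's test (0 of 9); the smallest was 0.340, for Psmc3ip, with 159 genes between.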

How the data were processed

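The authors deposited log2 signals, 1 for each of 41345 probe sets on each array. The submitters' processing notes name Affymetrix Expression Console 1.4.1.46. How background was corrected and arrays were normalized is not stated in these sources. The log2 scale of the deposited values was inferred: the highest, 14.2, exceeds 11.1, the natural log of a 16-bit scanner's limit. Arrays were used as deposited; no depth applies, and their number limits the precision.

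Groups and replicate numbers came from the sample titles. Names came from the array annotation, which gives 23521 of 41345 probe sets 1 symbol. Knockout minus wild type was tested with limma 3.58.1 (lmFit, eBayes) in R 4.3.3 over all probe sets, with Benjamini-Hochberg adjustment. On simulated data the test called 9 of 50 planted 1.5-fold changes and 26 of 50 planted 2-fold changes. It called 46 of 50 at 4-fold and 49 of 50 at 8-fold, with 4 false calls. Absence of a call at the adjusted p alone thus does not exclude a 1.5-fold or 2-fold change. Values in all arrays are given for the catalytic subunits, the Psme genes, the 3 smallest p in each other class and the 3 largest SDs; Psmb8, Psmb11, Psmd14 and Nfe2l1 were added after their values were seen. Members and lists were chosen with earlier results of these data known.

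Alternatives were median centring, quantile normalization, array weights, limma-trend, no dim probe sets (lowest 30%), single-symbol probe sets, the mean over a gene's probe sets, blocks and leaving out arrays. Deviations from group means correlated across genes at 0.285, 0.116 and 0.115 between same-numbered arrays, each above 0.1. Knockout replicate 3 and wild-type replicate 2, which differ in number, correlated at 0.095. Replicates 2 and 3 were thus hardly above a mismatched pair, and only replicate 1 stood clear. The numbers were still treated as pairs for the replicate block. The labels do not say what a number shares.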

Additional observations from a re-analysis of the deposited data

How the results depend on the processing

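In all 16 alternatives 0 of 41 members passed limma's adjusted p of 0.05 or an unadjusted p of 0.05. One of them, on the arrays with 1 kind of sex-linked signal, has 1 knockout array and bears nothing on stability. The replicate block changed no call: it called 0 probe sets and 0 members and left the class medians at -0.05, -0.02 and 0.02. Median centring of arrays called 1 probe set and array weights called 1. With limma-trend the smallest unadjusted p of a member was 0.112, against 0.254 in the main fit. Leave-one-out fits called 0 to 2, with the 2 in the fit that lacks knockout replicate 3. In those fits the median lay between -0.081 and 0.021 for the regulatory particle, between -0.075 and -0.014 for the core, and between -0.0096 and 0.049 for the activators. Some uncalled differences changed sign. With the kind of sex-linked signal as a block Psma1, Psme1 and Psme3ip1 stood at 0.0084, -0.0055 and 0.0044. On arrays with 1 kind of sex-linked signal Psma5, Psmb3 and Psmb6 stood at -0.101, 0.0286 and 0.0831. Psme3ip1 was 0.0039 with array weights, Psmd10 -0.0062 after quantile normalization, and Psma5 -0.0407 as the mean of its probe sets. Leave-one-out differences lay between -0.148 and 0.269 for Psma5, -0.145 and 0.0025 for Psmb3, -0.0487 and 0.0313 for Psmb6, -0.0534 and 0.0664 for Psmb7, -0.0902 and 0.148 for Psmd10, -0.212 and 0.315 for Psme2, -0.0151 and 0.076 for Psme3, -0.0528 and 0.0243 for Psme3ip1, and -0.0096 and 0.0493 for Psme4. Of the 21 named members, those 9 changed sign in leave-one-out fits, 11 kept their sign but moved by over 1.5 times, and Psmb1 alone did neither (-0.162 to -0.0821). The 11 ran from -0.169 to -0.0049 for Psma1, -0.122 to -0.0603 for Psma2, -0.130 to -0.0622 for Psma3, -0.129 to -0.0097 for Psmb5, 0.0189 to 0.0958 for Psmc1, 0.0708 to 0.232 for Psmc3ip, -0.179 to -0.0351 for Psmc4, -0.135 to -0.0256 for Psmd2, -0.110 to -0.0223 for Psmd6, 0.0167 to 0.165 for Psmd9 and 0.0009 to 0.0487 for Psme1. The cause was not tested.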
